A study of Mus musculus with 5 samples.

Results

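Among the places where macroH2A1.2-GFP was found in 3T3-L1 cells, 3774 were short merged regions that every anti-GFP sample had called. They were selected on measured values: the regions of the 4 anti-GFP samples were merged wherever they shared a base, and a merged region was kept when it lay on an autosome, measured under 10000 bp and held a called region of each sample. They made up 29.5% of the 12781 autosomal merged regions called in all 4 samples. The merged regions numbered 62927 in all. The other 9007 autosomal regions called in all samples measured 10000 bp or more. Another 35 short regions called in all samples lay on chromosome X and were outside the rule.

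MacroH2A1 is a histone variant that replaces H2A in some nucleosomes and carries a large globular macro domain at its carboxyl end. Its messenger RNA is spliced into the forms macroH2A1.1 and macroH2A1.2. The protein is known for covering long stretches of chromatin, among them the inactive X chromosome and genes that are silent in a given cell type. 3T3-L1 is a mouse embryonic fibroblast line that a hormone cocktail turns into fat-storing cells.

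All cells carried macroH2A1.2 fused to GFP, brought in by a lentivirus and stably expressed. Pre-adipocytes (2 samples) were collected before differentiation. Mature adipocytes (2 samples) came from cells given IBMX, dexamethasone and insulin for 60 h and then kept in medium with insulin, for a time the labels do not give. The study's methods cite an established differentiation protocol lasting many days. The methods speak of stable clones without giving their number. Chromatin was cut with micrococcal nuclease, precipitated with an antibody to GFP and sequenced. A single control library, titled as made without antibody, served all 4 samples. Its description field names cells with GFP and an anti-GFP label, and the description fields of both mature samples name the state before differentiation. The groups used here rest on the titles. Chromatin reads hold no gene expression, so the labelled cell state could not be checked against marker genes.

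The second pre-adipocyte replicate was the shallow library. Library size relative to the control was 1.20 and 0.549 in pre-adipocyte replicates 1 and 2, and 1.23 and 1.21 in mature replicates 1 and 2. Inside compact regions lay 713403, 253428, 683999 and 663730 ChIP reads, samples ordered as above, or 7.22%, 8.95%, 5.90% and 5.92% of all reads inside called regions. The study calls the replicates biological. The sources do not say whether they were separate cultures or separate lines, so p-values measure only the spread between these samples.

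A few promoters give examples of DNA inside these regions, but only 4.80% of the regions cover a protein-coding start. The sequence of the regions as a whole was not read. The RefSeq promoter table (GRCm38.p6, the windows from 250 bases before to 50 after each start) was matched by position, and 307 windows of 270 genes lay wholly inside compact regions. The windows printed here belong to genes whose start lies in a compact region with high enrichment, and are restricted to those where the 250 bases before the start overlap no annotated exon. Capitals mark each CpG, the dinucleotide that carries DNA methylation. Tex33 (chr15:78388770-78389019, minus strand) and Krt32 (chr11:100088270-100088519, minus strand) hold few, and Lrmda (chr14:22019462-22019711, plus strand) holds 15. Sema6b lies at chr17:56133853-56134102 on the minus strand.
Tex33: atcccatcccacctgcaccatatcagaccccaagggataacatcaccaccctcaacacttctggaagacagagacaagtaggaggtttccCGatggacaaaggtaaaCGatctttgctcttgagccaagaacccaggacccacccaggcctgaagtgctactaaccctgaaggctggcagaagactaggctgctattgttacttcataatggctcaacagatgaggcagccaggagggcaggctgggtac
Krt32: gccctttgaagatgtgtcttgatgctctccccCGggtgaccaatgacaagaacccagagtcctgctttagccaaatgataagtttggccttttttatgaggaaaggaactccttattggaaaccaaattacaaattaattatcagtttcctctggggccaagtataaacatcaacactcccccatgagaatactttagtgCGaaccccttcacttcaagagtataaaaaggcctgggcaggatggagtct
Sema6b: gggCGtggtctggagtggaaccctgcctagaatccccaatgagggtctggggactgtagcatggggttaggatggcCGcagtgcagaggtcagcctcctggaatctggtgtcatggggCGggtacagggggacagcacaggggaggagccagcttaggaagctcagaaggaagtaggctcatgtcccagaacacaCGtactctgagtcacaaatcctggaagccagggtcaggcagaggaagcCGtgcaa
Lrmda: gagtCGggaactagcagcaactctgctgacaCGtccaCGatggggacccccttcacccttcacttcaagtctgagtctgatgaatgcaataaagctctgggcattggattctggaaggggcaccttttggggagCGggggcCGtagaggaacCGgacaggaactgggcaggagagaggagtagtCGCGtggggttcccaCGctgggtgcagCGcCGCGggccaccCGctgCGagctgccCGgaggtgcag

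The Tex33 and Krt32 stretches hold 2 CpG each and the Sema6b stretch holds 5. Krt32, a hair keratin, has the letters TATAAA in the printed stretch. Sema6b, a semaphorin that guides cells and axons, has AGGTCA and GGGCGG.

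CpG-poor promoters made up most of the promoters inside compact regions. Their median ratio of observed to expected CpG was 0.253, against 0.389 over all 31396 autosomal windows of the table. A ratio above 0.6, as in CpG islands, was found in 43 of 307 (14.0%). It was found in 36.4% of all autosomal windows, in 10.5% of the 2319 windows inside regions of 10000 bp or more called in all samples, and in 13.5% of the 1885 windows inside short regions called in fewer samples. The compact regions held a lower share of island-like promoters than the table as a whole, and a share close to that of the other called regions. GC content had a median of 49.3%, against 53.0% over all windows. No test was made, since neighbouring windows and alternative starts of a gene share sequence.

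**Figure D1:**
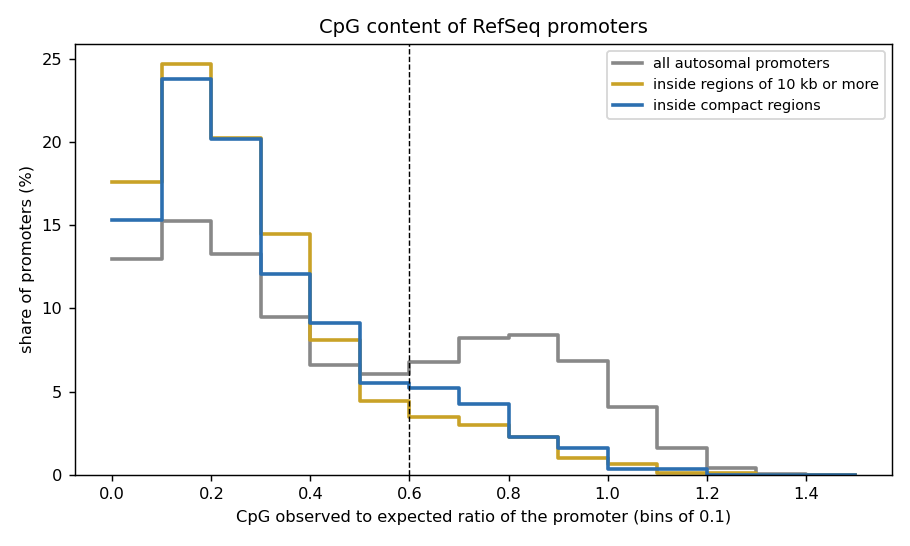
Share of promoters (%) by CpG observed to expected ratio, in bins of 0.1, for all autosomal RefSeq windows, for windows inside regions of 10000 bp or more and for windows inside compact regions. The dashed line stands at 0.6, above which 14.0% of the compact windows lie against 36.4% of all windows.

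Words that transcription factors can bind were counted on both strands of the 300-base windows. GGGCGG, the GC box of SP and KLF factors, which itself contains a CpG, was in 23.1% of compact windows and in 35.98% of all windows, with 14.6% in regions of 10000 bp or more and 17.98% in short regions called in fewer samples. AGGTCA, a site of nuclear receptors, was in 20.5% of compact windows and 16.3% of all, and in 19.7% of windows in regions of 10000 bp or more and 19.0% in short regions called in fewer samples. TGACAG, the core of TGIF and PKNOX factors, was in 19.5% against 19.0%. TATAAA was in 14.98% against 13.6%, GGAATG, the core of TEAD factors, in 14.3% against 14.6% (19.2% in regions of 10000 bp or more), and AGATAA, the core of GATA factors, in 12.1% against 11.2%. A match is only a run of letters, and binding of these factors was not measured.

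The compact regions were close to the length limit. Their length ran from 800 to 9800 bp with quartiles of 5800, 7200 and 8600 bp, and together they covered 26.6 Mb. The 152 regions just inside the limit measured 9800 bp and had median fold enrichments of 1.63, 2.03, 1.78 and 1.81 in pre-adipocyte replicates 1 and 2 and mature replicates 1 and 2. The 145 regions just outside it measured 10000 bp and had 1.57, 2.00, 1.78 and 1.72. The sides of the limit were close in enrichment in each sample.

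Most compact regions were a single called interval in each sample, but the intervals covered different stretches. A single interval was found in 96.2% and 89.4% of the regions in pre-adipocyte replicates 1 and 2, and in 83.7% and 81.7% in mature replicates 1 and 2. In regions of 10000 bp or more these shares were 47.8%, 38.1%, 27.2% and 24.98%. The called interval covered a median of 82.1% and 46.7% of the merged region in the pre-adipocyte samples, and 67.9% and 65.7% in the mature samples. The values of the mature samples lay between those of the pre-adipocyte replicates. The difference of 2.43 percentage points between the condition means (64.4% ± 25.02 against 66.8% ± 1.52, SD, n = 2 each) is a description, since the called intervals chose the members. Without pre-adipocyte replicate 2 it was -15.3 points.

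The stretch that all samples called was much shorter than the merged region. This shared core had a median of 1600 bp (quartiles 800 and 2400 bp). In 572 regions (15.2%) no base was called in all 4 samples, since the intervals were joined through overlaps of some samples only. The core reached 50% of the merged length in 508 regions (13.5%), the longest measured 7800 bp, and in 2 regions all samples called the same bases. In 83 regions every sample's intervals covered at least 80% of the merged length. 

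The share of called bases common to a pair of samples was lower in every pair with pre-adipocyte replicate 2. Of the bases called in either sample, 44.7% were called in both pre-adipocyte replicates and 55.8% in both mature replicates. Pre-adipocyte replicate 1 shared 55.9% and 55.6% with mature replicates 1 and 2. Pre-adipocyte replicate 2 shared 43.8% and 43.6% with them. Pre-adipocyte replicate 1 shared as much with the mature samples as those shared with each other. Replicate 2 was the shallow library. Whether depth set these values was not tested. The same library defined an edge of the merged region least often, in 19.6% of edges, against 44.5% for pre-adipocyte replicate 1 and 32.3% and 29.9% for the mature replicates.

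**Figure D2:**
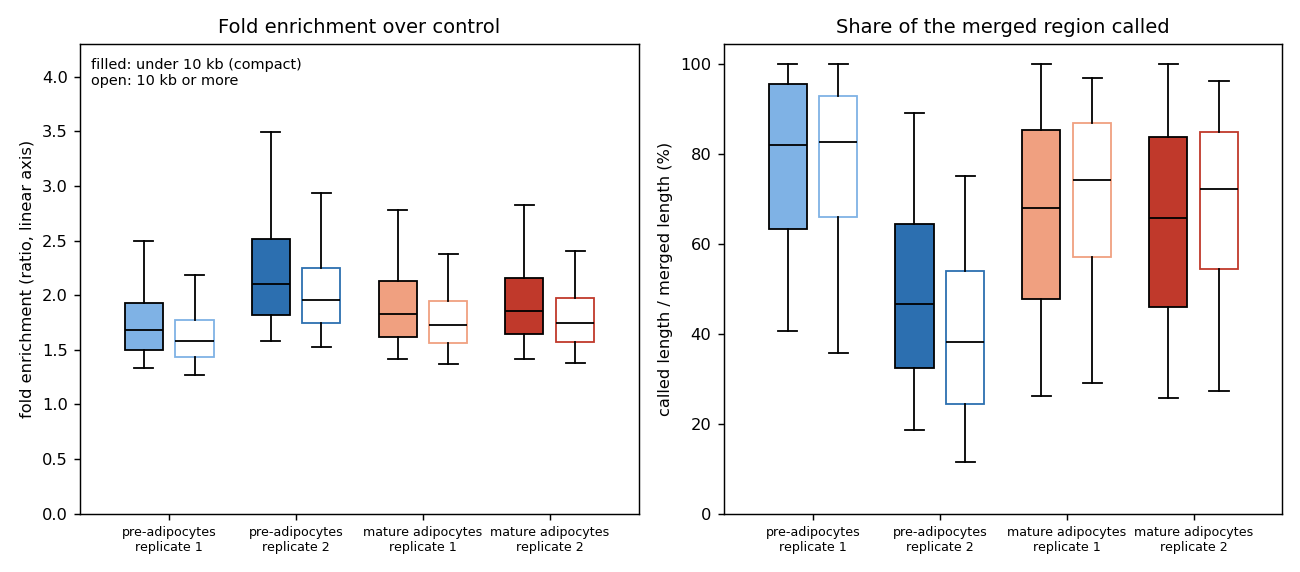
Left, fold enrichment over the control (linear axis), and right, share of the merged region called (%), in each sample. Filled boxes are compact regions (n = 3774) and open boxes are regions of 10000 bp or more (n = 9007), with median, quartiles and whiskers at percentiles 5 and 95. Compact medians of fold enrichment (1.68, 2.10, 1.83 and 1.86) lie above those of the longer regions in each sample, and pre-adipocyte replicate 2 stands highest on the left and lowest on the right.

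Enrichment in compact regions was modest. Fold enrichment, the ratio of ChIP to control reads after scaling for library size, is a value that chose the members and is given as a description. Its median was 1.68 and 2.10 in pre-adipocyte replicates 1 and 2, and 1.83 and 1.86 in mature replicates 1 and 2. In regions of 10000 bp or more it was 1.58, 1.96, 1.73 and 1.74, so the compact median was higher in each of the 4 samples. The lowest fold enrichment over the 4 samples reached 1.5 in 2490 compact regions (66.0%), 2 in 425 (11.3%) and 3 in 15 (0.397%), against 58.1%, 6.68% and 0.0666% of the longer regions. Shorter intervals hold fewer control reads, and their ratios spread more widely. What that adds to these shares was not tested. Median control reads per kb were 17.0, 17.2, 17.3 and 17.3, with a median ChIP read count of 178, 59, 169 and 164 per region.

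The direction of the difference in level between conditions depended on the scaling. The log2 tag density (ChIP reads per called bp × 100) had medians of 1.78 and 1.00 in the pre-adipocyte samples and 1.95 and 1.95 in the mature samples. Both mature samples were higher, by 0.56 between means (1.39 ± 0.554 against 1.95 ± 0.00471, SD, n = 2 each). The difference is a description with no test, since the called intervals that gave these reads and lengths chose the members. The difference was 0.17 without pre-adipocyte replicate 2 and 0.95 without pre-adipocyte replicate 1. This density is not scaled for library size, and dividing by it turned the difference to -0.02. Scaled ChIP reads per kb had medians of 28.6 and 36.4 in pre-adipocytes and 31.6 and 32.0 in mature adipocytes. The mature values again lay between the replicates of the other group (difference -0.773). Fold enrichment differed by -0.05 (1.89 ± 0.296 against 1.84 ± 0.0219, SD, n = 2 each), a description with no test, and by 0.159 without pre-adipocyte replicate 2.

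The order of the samples was also read region by region. Both mature samples stood above both pre-adipocyte samples in scaled density in 478 compact regions (12.7%), beside 10.5% of all 12857 regions called in the 4 samples. Both stood below in 473 (12.5%), beside 9.54% of all regions. The compact shares were 2 to 3 percentage points above the background and nearly equal in both directions. In 1425 regions (37.8%) both mature samples fell between the pre-adipocyte replicates, beside 49.6% of all regions. The shallow pre-adipocyte replicate 2 had the highest scaled density in 62.7% of compact regions and 71.6% of all regions. Replicate 1 had the lowest in 59.7% and 69.1%.

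A test across all 12857 regions called 1 compact region of 3774. It used edgeR's quasi-likelihood test on ChIP reads offset by the length each sample called, with p-values adjusted over all regions by Benjamini-Hochberg. The single call was higher in mature adipocytes, and the background was 0.0778% of all regions called higher and 0.00778% called lower in mature adipocytes. None of the compact regions was called lower in this fit. Where every sample's intervals covered at least 80%, 5 of 83 compact regions were, beside 11 of all 200 such regions. Fits that left out a pre-adipocyte replicate also called some lower, with a single sample left in that group. An unadjusted p under 0.05 was found in 231 compact regions (6.12%), beside 1174 (9.13%) of all regions tested. Log2 fold changes, mature against pre-adipocytes, had a median of -0.0029 and ran from -0.30 to 0.29 between percentiles 5 and 95, with a median standard error of 0.17. In 99.2% of compact regions the estimate lay within 0.5 of no change on the log2 scale, beside 99.7% of all regions. Reads and lengths were those of each sample's own called intervals, so this share cannot show that occupancy was unchanged. Without the length offset it was 61.7% of compact regions and 61.3% of all regions. DESeq2 called 0 compact regions, with 25 at an unadjusted p under 0.05, and 2 of all regions, with 217. Scaling by library size relative to the control gave 0 calls among compact and among all regions in edgeR, with 33 and 69 at an unadjusted p under 0.05.

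**Figure D3:**
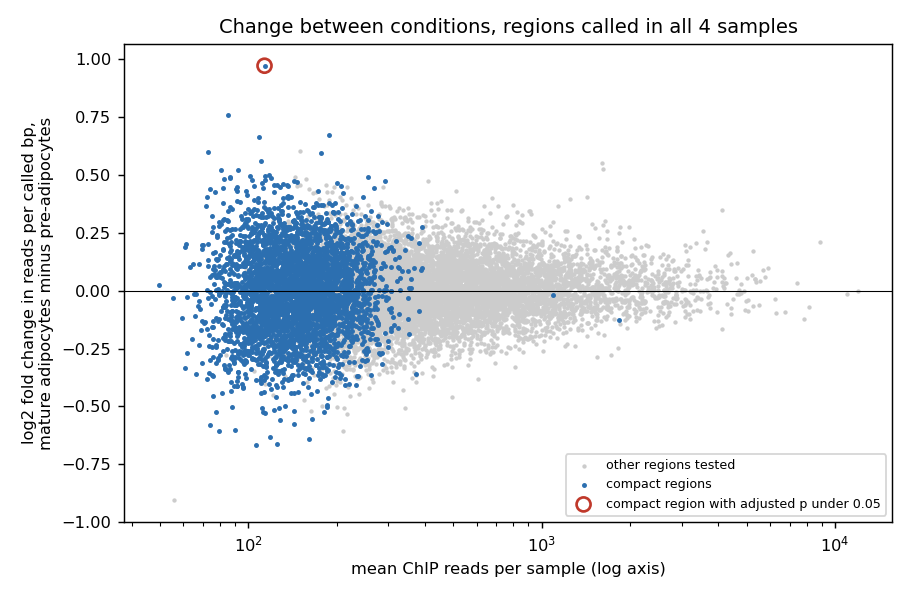
Log2 fold change in reads per called bp, mature adipocytes minus pre-adipocytes, against mean ChIP reads per sample (log axis) for the 12857 regions tested. Blue points are the 3774 compact regions, grey points the other regions, and the red circle the compact region with an adjusted p under 0.05, at 0.97 on the vertical axis.

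The called region lay at chr5:139979401-139983800 (mm10), 4400 bp long and between genes, 4678 bp from the body of Elfn1. Scaled ChIP reads per kb were 38.0 and 38.7 in the pre-adipocyte samples and 65.2 and 92.2 in the mature samples. The groups did not overlap, as in 12.7% of compact regions and 10.5% of all regions in this direction. The raw reads went the other way: 201 and 68 in pre-adipocytes, over called lengths of 4400 and 3200 bp, and 96 and 89 in mature adipocytes, over 1200 and 800 bp. The mature samples called only a short part of what the pre-adipocyte samples called. The log2 fold change was 0.97 with a standard error of 0.19 and an edgeR adjusted p of 0.0182. Without the length offset it was -1.18. Without mature replicate 2 the adjusted p was 0.532, and over the 10 alternatives it ran from 0.000939 to 0.9999, under 0.05 in 6.

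The regions with the smallest p among those lower in mature adipocytes did not pass. At chr9:120410001-120416800, in an intron of Myrip, a linker of Rab27a and myosin, scaled density was 47.5 and 51.9 in pre-adipocytes and 29.4 and 34.4 in mature adipocytes (log2 fold change -0.64, standard error 0.16, edgeR adjusted p = 0.118). Its called length went from 2400 and 2000 bp to 4600 and 6800 bp, and its log2 fold change without the length offset was 0.50. At chr15:90295401-90300400, between genes, density was 40.5 and 65.1 against 29.95 and 30.8 (edgeR adjusted p = 0.131). At chr9:79494001-79499600 it was 37.9 and 49.2 against 29.0 and 29.0 (edgeR adjusted p = 0.143). In each of these 3 the groups did not overlap in scaled density, but they were picked by a small p on the same reads and lengths. Both mature samples stood below both pre-adipocyte samples in 12.5% of compact regions and 9.54% of all regions.

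Compact regions lay mostly outside genes. By their midpoint, 62.9% (95% Wilson interval 61.4 to 64.4) were intergenic, 30.8% in introns, 2.68% at transcript ends and 1.59% (1.24 to 2.04) in promoters, which run from 1000 bp before to 100 bp after a transcript start in GENCODE M21. Regions of 10000 bp or more had 63.4%, 30.8%, 1.97% and 2.04% in these classes. Short regions called in fewer than 4 samples had 55.9%, 37.0%, 2.24% and 2.44%. Of positions on a regular autosomal grid 50.5% were intergenic, 41.3% intronic and 2.59% promoter. The intergenic share was above that of the genome and close to that of longer regions. Intervals cover counting error only. With transcripts of protein-coding genes alone, 74.1% were intergenic, and 17.7% of the regions touched a promoter window when any overlap was counted.

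In total 1155 compact regions (30.6%) overlapped 875 protein-coding genes, which was 4.21% of the 20807 autosomal protein-coding genes. It was 553 genes at a false discovery rate of 1e-05 or less, 181 at a fold enrichment of at least 2 and 157 under 5000 bp. A protein-coding start was covered by 181 regions (4.80%), of 195 genes. Per Mb of region this was 6.79, against 4.16 in regions of 10000 bp or more, where 910 (10.1%) covered a start, and 6.82 in short regions called in fewer than 4 samples. The median distance from the midpoint of a compact region to a protein-coding start was 50.6 kb. It was 64.5 kb for the longer regions and 45.2 kb for the short regions called in fewer samples. Within 10 kb of a start lay the midpoint of 18.7% of compact regions, 12.4% of the longer ones and 18.6% of the short ones called in fewer samples. By these measures of starts the compact regions were closer to the other short regions than to the longer ones. In overlap with protein-coding genes they were closer to the longer ones. It was 30.6% in compact regions, 32.8% in the longer ones and 36.9% in the short ones called in fewer samples. The midpoint of a long region can lie far from a start it covers, and the count per Mb takes each region once. The part of region length in these contrasts was not tested. In gene deserts, over 500 kb from any start, lay 226 compact regions (5.99%) and 6.61% of the longer ones. Of 919 autosomal microRNA hairpins in RefSeq 5 lay in compact regions, among them Mir196a-1 and Mir7k.

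The most enriched compact regions were mostly between genes or in introns. Of the 10 with the highest minimum fold enrichment (at least 20 control reads in every sample), 6 were intergenic, 4 intronic and 3 had no core. Their minimum ran from 2.90 to 3.67. The leading region was at chr11:6759601-6766400, far from any protein-coding start (74.1 kb). No base of it was called in all 4 samples, so its values describe partly different stretches. Its fold enrichment was 3.67 and 3.94 in pre-adipocytes and 3.97 and 4.77 in mature adipocytes, from 119, 54, 117 and 161 ChIP reads and 27, 25, 24 and 28 control reads.

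The region at chr9:89958801-89962200 lies in an intron of Rasgrf1, an imprinted Ras exchange factor. It measured 3400 bp with a core of 2000 bp, so the samples agreed on most of it. Its fold enrichment was 3.70 and 4.94 in pre-adipocytes and 3.29 and 4.32 in mature adipocytes. Others of the 10 lay in introns of Rbfox3, a neuronal splicing factor, and Cdh22, a cadherin. The Rbfox3 region had fold enrichments of 3.13, 2.94, 3.45 and 3.09, and the Cdh22 region 3.52, 3.49, 3.40 and 3.01. The Cdh22 region had no core, and that of the Rbfox3 region measured 1600 bp.

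Among compact regions on a protein-coding start, the 10 with the highest minimum fold enrichment had a minimum that ran from 2.25 to 3.31, and 5 of them had no core. The region at chr11:81856801-81866600 covered the start of 5530401A14Rik inside an intron of Asic2, an acid-sensing ion channel. It had no core, with 3.44 and 3.31 in pre-adipocytes and 3.33 and 4.24 in mature adipocytes. The Tex33 region, whose promoter is printed above, had 2.77 and 2.78 in pre-adipocytes and 2.93 and 3.56 in mature adipocytes. The Krt32 region had 2.78, 3.08, 2.93 and 2.37, and the Sema6b region 2.28, 2.41, 2.44 and 2.77.

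Stra6, a membrane receptor, takes up retinol from its carrier protein. Its region measured 9400 bp, had no base called in all 4 samples, and had fold enrichments of 2.99 and 4.25 in pre-adipocytes and 3.07 and 2.52 in mature adipocytes. The highest of these, in pre-adipocyte replicate 2, rests on 42 ChIP and 18 control reads. The Gfra2 region, at the start of a receptor for the growth factor neurturin, also had no core and had 2.57, 2.64, 2.55 and 2.36. The Cacna2d3 region, at a calcium channel subunit, had 2.81, 3.20, 2.90 and 2.67.

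A few compact regions stood out by read number instead of enrichment. At chr2:77959001-77964000, 15.1 kb from the start of Cwc22, a splicing factor, 2118, 1061, 2070 and 2116 ChIP reads faced 1523, 1523, 1523 and 1530 control reads. Its fold enrichment was only 1.16, 1.27, 1.11 and 1.15. The region at chr2:77996801-77997800 had 314, 153, 393 and 361 ChIP reads and 210 control reads in each sample, and at chr13:119595801-119603000, in an intron of Tmem267, there were 1164, 638, 1288 and 1279 ChIP reads. These were the 3 compact regions whose control density was at least 3 times the median in every sample. The control rose with the ChIP signal there, and its part in the calls was not tested.

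Of the 258 genes in 9 lists of adipocyte, stromal and developmental genes, 12 (4.65%) held a compact region, close to the 4.21% of all autosomal protein-coding genes. A gene holds a region here when its body overlaps it, also where most of the region lies outside the gene, as at Mertk. The number was 6 at a false discovery rate of 1e-05 or less, where the endothelial gene Emcn was gained, 3 under 5000 bp and 0 at a fold enrichment of at least 2. Their 18 regions had fold enrichments from 1.26 to 3.08. Of the 12 genes 7 also held a region of 10000 bp or more, and Adipoq, Cidea, Nkx2-5, Pax2 and Wnt8b held compact regions alone. In edgeR 0 of the 18 regions passed, with log2 fold changes from -0.41 to 0.45 and a smallest adjusted p of 0.339. The lists were chosen with results of these data known.

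Among 36 lipid and adipokine genes 3 held a compact region. Adipoq, which encodes the adipocyte hormone adiponectin, had a region of 9800 bp over most of its gene body (chr16:23148401-23158200). Fold enrichment there was 1.63 and 2.39 in pre-adipocytes and 1.52 and 1.45 in mature adipocytes, so both mature samples were lower. The same order was found in 5 of the 18 regions of listed genes, this one included. In scaled density it was found in 12.5% of compact regions and 9.54% of all regions. The value of 2.39 rests on 55 ChIP and 42 control reads. Raw ChIP reads went the other way, 180 and 55 in pre-adipocytes and 275 and 347 in mature adipocytes. The mature samples called more of the region, 7000 and 9200 bp against 4200 and 1800 bp. The log2 fold change was -0.41 with a standard error of 0.15 and an edgeR adjusted p of 0.339, which did not pass.

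Cidea, a lipid droplet protein, had a region of 4000 bp with fold enrichments of 2.10 and 2.40 in pre-adipocytes and 1.75 and 2.05 in mature adipocytes. Mgll, the lipase that cleaves monoacylglycerol, had 2 intronic regions, neither with a core. Their fold enrichments were 1.38, 1.72, 1.49 and 1.44 in the first and 1.87, 1.87, 2.44 and 1.94 in the second. Neither gene had a region that passed.

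Of 42 adipogenic regulators only Ebf2, a transcription factor of brown and beige fat precursors, held compact regions. It held 3, all within its gene body and 39.9 to 186 kb from its start. The first had fold enrichments of 1.49, 1.63, 1.26 and 2.30, the second 1.74, 1.96, 1.91 and 2.06, and the third 1.71, 1.72, 2.16 and 2.03. The first varied between the mature replicates more than between the conditions. Of the 16 genes whose occupancy the study examined, 0 held a compact region and 1, the cell cycle inhibitor gene Cdkn1a, held a region of 10000 bp or more. A merged region called in any sample lay in 6 of the 16. Of all 20807 autosomal protein-coding genes, 875 held a compact region, 1861 a region of 10000 bp or more and 6481 a region called in any sample. Counts in 16 genes are too small to set the list apart from these. The study reports enriched regions in Ucp1, Cdkn1a, Fasn and Slc2a4, which differed between its duplicates.

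Among 52 genes of the Wnt pathway, whose ligands restrain adipogenesis, 3 held compact regions. Sfrp1, a secreted inhibitor of Wnt ligands, had neighbouring regions with fold enrichments of 1.71, 1.82, 2.21 and 1.91 and of 1.57, 1.73, 2.46 and 2.16. In fold enrichment each mature sample stood above each pre-adipocyte sample in both. That order was found in 4 of the 18 regions of listed genes, and the opposite order in 5. In scaled density both mature samples stood higher in 12.7% of compact regions and 10.5% of all regions. In scaled density the first overlapped between conditions, with 33.6 and 49.0 in pre-adipocytes and 46.4 and 39.9 in mature adipocytes, and its log2 fold change was 0.14 (standard error 0.18, edgeR adjusted p = 0.857). The second had a log2 fold change of 0.45, a standard error of 0.17 and an edgeR adjusted p of 0.358. The ligand genes Wnt5b and Wnt8b had 1.73, 3.08, 1.88 and 1.70, and 1.53, 1.74, 1.54 and 1.52. The high Wnt5b value in pre-adipocyte replicate 2 rests on 27 ChIP reads over 600 bp.

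Of 65 developmental homeobox genes 3 held compact regions. Pax2, a kidney regulator, had 2 of them, with fold enrichments of 1.80, 1.82, 2.24 and 1.80 and of 2.28, 2.51, 1.91 and 2.18. The starts of Dlx6, a limb and jaw regulator, and Nkx2-5, a heart regulator, were covered by regions with 1.54, 1.82, 2.25 and 1.79, and 1.78, 1.57, 1.84 and 1.53. Among 15 macrophage markers Mrc1, the mannose receptor, had 2 regions and Mertk, a receptor for dying cells, had 1 over its start. Of 25 fibroblast and preadipocyte markers, 12 endothelial markers and the 2 macroH2A genes, 0 held a compact region.

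**Figure D4:**
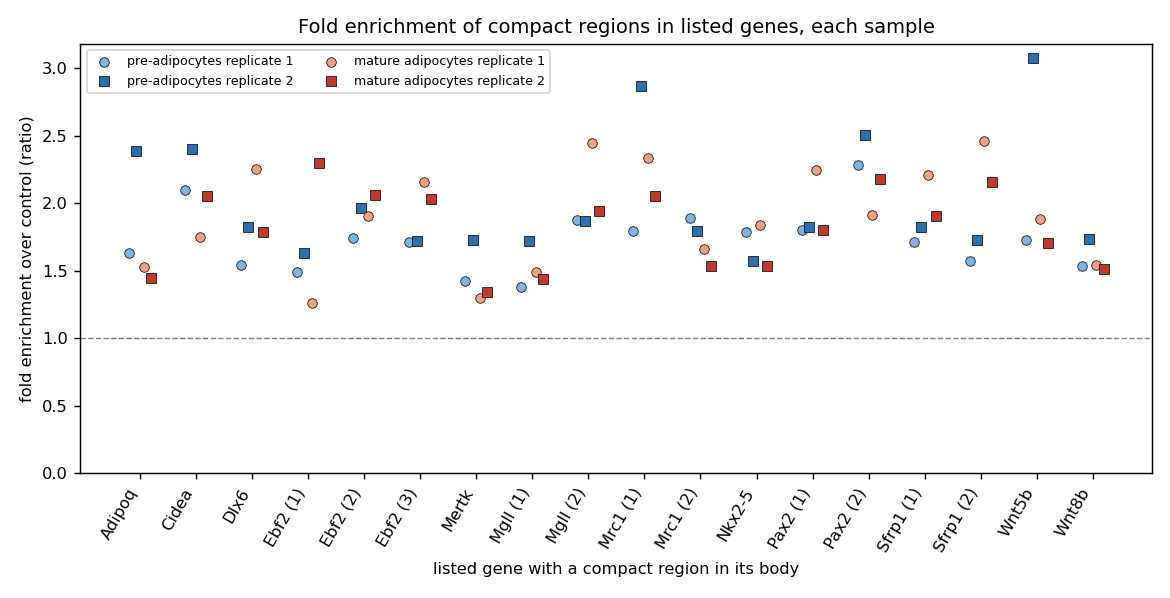
Fold enrichment over control (ratio) in each of the 4 samples for the 18 compact regions that overlap the bodies of 12 listed genes. Numbers in brackets are given where a gene holds several. The dashed line stands at a ratio of 1, all points lie between 1.26 and 3.08, and the highest is Wnt5b in pre-adipocyte replicate 2.

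The number of compact regions per Mb varied between chromosomes. It was highest on chromosome 15 (313 regions, 3.12 per Mb), followed by chromosomes 11 (2.51) and 13 (2.47). It was lowest on chromosome 7 (45 regions, 0.317 per Mb) and chromosome 12 (57 regions, 0.488 per Mb), and 1.58 over all autosomes. Across the 19 autosomes the number per Mb had r = 0.881 with that of regions of 10000 bp or more, and r = 0.166 with protein-coding genes per Mb. These points share the 4 libraries and are a description.

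Chromosome 7, rich in genes (14.2 protein-coding genes per Mb), differed in makeup. Compact regions were 72.6% of its regions called in all samples, against 29.5% over all autosomes. Its compact regions had median fold enrichments of 1.94, 2.73, 2.06 and 2.12, above the medians of all compact regions in each sample. Their median control density in pre-adipocyte replicate 1 was 13.8 reads per kb, against 17.0 over all. The part of the low control in these values was not tested.

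**Figure D5:**
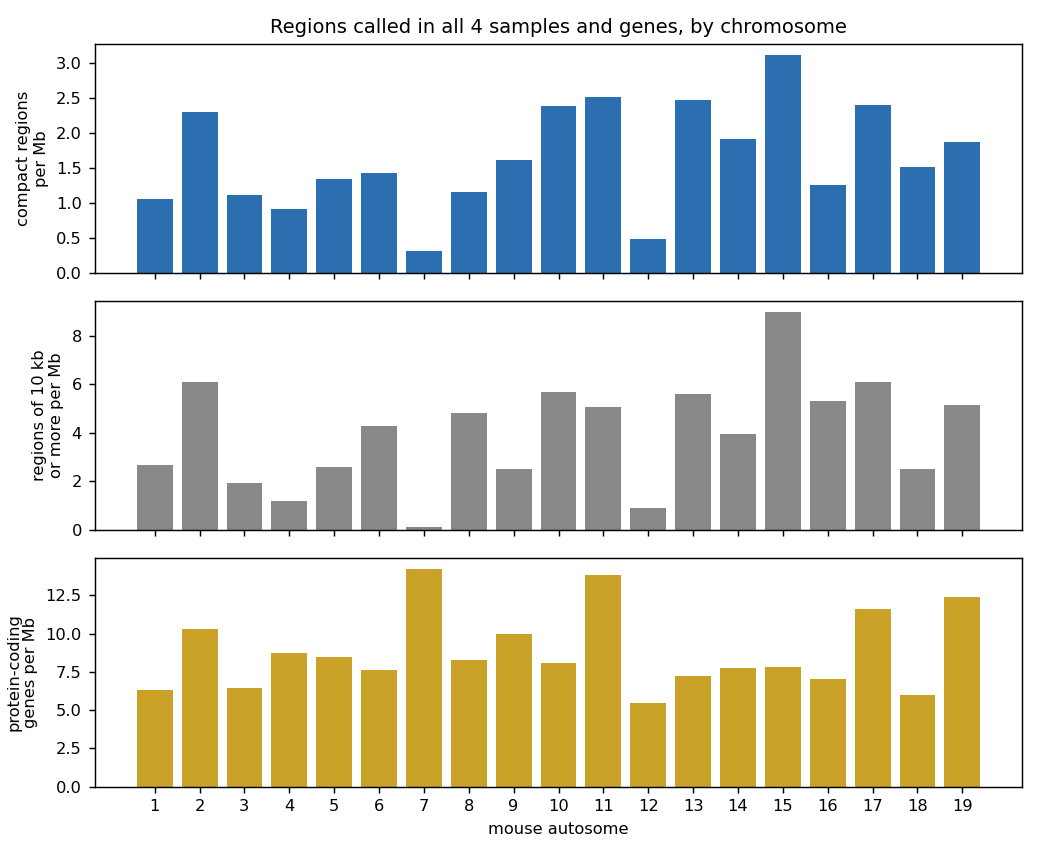
Compact regions per Mb (top), regions of 10000 bp or more per Mb (middle) and protein-coding genes per Mb (bottom) on each of the 19 mouse autosomes, as bars from 0. Chromosome 15 is highest in the top panel at 3.12 and chromosome 7 lowest at 0.317.

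Compact regions often lay near other regions, but less often than regions of 10000 bp or more did. The median gap from a compact region to the nearest region called in all samples was 7.6 kb, and 3.2 kb for regions of 10000 bp or more. In 2065 compact regions (54.7%) the gap was within 10 kb, and in 11.8% it was over 100 kb, beside 69.2% and 4.93% of the longer regions. The nearest neighbour measured 10000 bp or more in 66.1%, close to the 70.5% such regions made up of all autosomal regions called in all samples.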

How the data were processed

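MacroH2A1.2-GFP occupancy was measured by ChIP-seq with an anti-GFP antibody in 4 samples, 2 pre-adipocytes and 2 mature adipocytes, against 1 control library, whose reads enter through the control counts deposited for each region. Per the submitters' processing notes and the study's methods, the authors converted reads with bcl2fastq 2.16, aligned them to mm10 with Bowtie 1.1.2, removed duplicates with Picard and called regions per sample with SICER 1.1. For each region the deposited files give whole-number read counts (ChIP and control), the p-value of SICER and its adjusted form, the false discovery rate. They also give the fold enrichment, a deposited ratio that takes library size into account. The largest deposited rate was just under 0.001, so these regions passed a stricter limit than the study's methods state. The study also kept, per condition, the regions common to its replicates, a step not used here. Where the ChIP methods name mouse adipose tissue, the labels name 3T3-L1 cells.

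Regions, which lie in steps of 200 bp, were merged when they shared a base. Reads, control reads and lengths were summed over each sample's intervals. Library size relative to the control was taken from the deposited fold enrichment. Conditions were compared with edgeR 4.0.16 (R 4.3.3, quasi-likelihood test, TMM, log called length as offset, no filter on low counts) over all 12857 regions called in 4 samples. The planned exact permutation tests on sample medians of density, fold enrichment and called share are not given, since the called intervals behind those values chose the members. DESeq2 1.42.0 was an alternative. The step that merged regions and the count test were tested on simulated data. Positions were taken from GENCODE M21 basic, promoters from RefSeq. Other alternatives changed the rate to 1e-05, the fold enrichment to 2, the length to 5000 bp, the gap to 600 bp, the read minimum to 50 and the coverage to 80%, and left out each sample.

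Regions were named by rule: the 10 with the highest minimum fold enrichment, the 10 highest on a protein-coding start, those with the most reads per bp, those called by edgeR or otherwise the 3 with the smallest p in a direction, and those in listed genes. The Stra6 and Rasgrf1 regions and the others given in full were picked from these sets with values known. Members and lists were chosen with earlier results of these data known. The correlation of deviations between samples with the same replicate number was 0.00775, which does not show a pairing by number. With 2 samples per condition it cannot show that the samples were unpaired.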

Additional observations from a re-analysis of the deposited data

How the results depend on the processing

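The number of compact regions changed with every setting tried. It was 2184 at a false discovery rate of 1e-05 or less, 601 at a fold enrichment of at least 2 and 520 under 5000 bp, against 3774, and leaving out 1 sample gave 5824 to 8905. The wider gap gave 2923, which is within 1.5 times. Compact regions called between conditions numbered 0 with scaling by library size relative to the control, 0 with DESeq2, 0 without a length offset, 2 with at least 50 ChIP reads, 7 where called intervals cover at least 80% in every sample (of 83 such regions, 8.43%, beside 18 of 200 or 9% of all) and 0 to 10 when a sample was left out, against 1. With at least 50 reads 27 of all 10487 regions were called. The lowest number came without mature replicate 2, and 10 (0.265%) and 9 (0.238%) without pre-adipocyte replicates 1 and 2, beside 126 (0.98%) and 206 (1.60%) of all regions. The replicate block, which pairs samples by a shared number only, gave 2. The cause of these shifts was not tested.

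The difference in tag density was -0.024 when divided by library size relative to the control, and otherwise kept its sign, from 0.167 without pre-adipocyte replicate 2 to 0.951 without replicate 1. Fold enrichment differed by 0.00064 with at least 50 control reads, and by -0.260 to 0.159 when a sample was left out. The share called differed by -1.24 points under 5000 bp and by -15.3 to 20.1 when a sample was left out. With transcripts of protein-coding genes alone the intergenic share was 74.1% and the promoter share 0.689%, and counting any overlap with a promoter window gave 17.7%. The log2 fold change without a length offset was -1.18 at the called chromosome 5 region and 0.50 at the Myrip region. The depth of pre-adipocyte replicate 2, with a median of 59 reads per region, limits what a comparison of 2 against 2 can show.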
